A study of Mus musculus with 16 samples.

Results

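The 4 adult globin genes Hba-a1, Hba-a2, Hbb-bs and Hbb-bt and the erythroid haem enzyme gene Alas2 were taken by their symbols as a measure of the blood carried in each tumour. All 5 were among the 16094 genes measured, and all 5 were among the 14672 genes that entered the tests, for which the mean over tumours had to reach 5 normalised counts. Haemoglobin is a tetramer of alpha and beta chains, each holding a haem group. Red cell precursors make it in the bone marrow, and reticulocytes, the youngest red cells in the circulation, still carry globin RNA although they have lost the nucleus. Globin RNA in a piece of solid tissue is commonly read as a trace of blood.

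The 16 tumours came from the mouse melanoma line B16R2L, implanted into mice. The cells carried 1 hairpin against Mdk (shMdk), which encodes the secreted growth factor midkine, or a hairpin with no target (shCtrl). From a tumour size of 100 mm3 the mice were given anti-PD1 (clone RMP1-14, 10 mg per kg per the labels) or the IgG2a control, with 2 injections per week for 2 weeks. This gave 4 groups of 4 tumours: shMdk anti-PD1, shMdk IgG2a, shCtrl anti-PD1 and shCtrl IgG2a. The labels give no strain, sex or age of the mice, no replicate numbers, and no statement on whether the blood vessels were flushed before excision. Tumours are numbered 1 to 4 within a group only as names. The series asks how Mdk-knockdown tumours respond to PD1 therapy.

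Libraries held between 5686405 and 8886334 reads. Mdk lay between 96.5 and 312 normalised counts in shMdk anti-PD1 tumours and between 121 and 323 in shMdk IgG2a tumours, against 606 to 1104 in shCtrl anti-PD1 tumours and 601 to 1161 in shCtrl IgG2a tumours. The groups did not overlap for either antibody, and the two-sided exact permutation p was 0.0286 for each, the smallest that 4 against 4 tumours allow. All 7 of 7 melanoma genes looked up (Mitf, Sox10, Pmel, Tyr, Tyrp1, Dct and Mlana) were measured, with a summed level of 107394 to 187437 normalised counts per tumour. One library stood apart before any comparison. The library of shCtrl anti-PD1 tumour 2 had the fewest reads, its share of reads from Gm42418, which overlaps the ribosomal RNA repeat, was 4.47%, against 0.880 to 3.17% in the other 15, and 15.0% of all genes tested had their highest value in it.

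The coding sequences of each globin pair are almost the same. On chromosome 11 (GRCm38), Hba-a1 (ENSMUSG00000069919.7) lies at 32283511 to 32284465 and Hba-a2 (ENSMUSG00000069917.7) at 32296489 to 32297298, both on the plus strand. Their coding sequences of 429 bases differ at 1 position, C381T, counted from 1 at the start codon, with Hba-a1 as the first base given. The stretch around it, bases 351 to 410 of the coding sequence with the differing base in capitals, shows how little can assign a read to one gene.
Hba-a1: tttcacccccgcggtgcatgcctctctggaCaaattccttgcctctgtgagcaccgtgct
Hba-a2: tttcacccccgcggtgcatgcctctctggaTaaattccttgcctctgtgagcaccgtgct

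The beta genes lie on the minus strand of chromosome 7, Hbb-bs (ENSMUSG00000052305.6) at 103826534 to 103828096 and Hbb-bt (ENSMUSG00000073940.3) at 103812524 to 103813996. Their coding sequences of 444 bases also differ at 1 position, C417T, with Hbb-bs as the first base given. The last 60 bases, 385 to 444, hold it and end in the stop codon.
Hbb-bs: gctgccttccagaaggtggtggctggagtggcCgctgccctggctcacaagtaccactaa
Hbb-bt: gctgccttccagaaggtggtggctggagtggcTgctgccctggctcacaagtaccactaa

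Reads of this kit start near the poly(A) tail, so the 3′ untranslated region decides how well a pair can be separated. That of Hba-a1, 74 bases long, is the exact start of that of Hba-a2, which has 90, so reads of the alpha pair can be shared and the separate values of Hba-a1 and Hba-a2 are uncertain. Those of Hbb-bs and Hbb-bt have 131 and 132 bases and were 70.4% identical over 135 aligned columns. The counting is stranded per the labels, so reads of an antisense gene are kept apart. Alas2 (ENSMUSG00000025270.13) is at 150547375 to 150570638 on the plus strand of the X chromosome and has no such copy on these terms.

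The 250 bases upstream of the RefSeq start of 4 of the genes are given (GRCm38.p6, the strand of the gene). Any link between these sequences and the variation of the 5 genes from tumour to tumour was not tested. Capitals mark the letters GATAAG (a motif read by GATA factors), CACCC (a motif read by KLF factors), CCAAT and TATAA, or their reverse complements, and the window of Hba-a1 shares an unbroken run of 247 of 250 bases with that of Hba-a2.
Hba-a2, chr11:32296242-32296491, plus strand: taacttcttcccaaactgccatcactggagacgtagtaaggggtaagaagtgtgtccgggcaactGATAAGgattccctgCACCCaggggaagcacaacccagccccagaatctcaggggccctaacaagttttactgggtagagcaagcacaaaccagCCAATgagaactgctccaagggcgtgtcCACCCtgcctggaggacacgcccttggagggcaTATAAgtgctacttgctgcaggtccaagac
Hbb-bs, chr7:103827929-103828178, minus strand: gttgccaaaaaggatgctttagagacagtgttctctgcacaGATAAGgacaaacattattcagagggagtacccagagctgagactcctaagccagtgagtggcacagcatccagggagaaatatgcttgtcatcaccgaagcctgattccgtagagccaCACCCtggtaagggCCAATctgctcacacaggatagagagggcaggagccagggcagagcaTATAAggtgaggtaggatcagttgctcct
Hbb-bt, chr7:103813924-103814173, minus strand: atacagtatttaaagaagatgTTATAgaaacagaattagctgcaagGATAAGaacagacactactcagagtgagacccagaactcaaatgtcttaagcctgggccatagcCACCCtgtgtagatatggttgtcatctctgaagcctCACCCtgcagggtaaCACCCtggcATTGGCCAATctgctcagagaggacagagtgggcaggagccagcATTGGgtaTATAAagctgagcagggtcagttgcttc
Alas2, chrX:150547167-150547416, plus strand: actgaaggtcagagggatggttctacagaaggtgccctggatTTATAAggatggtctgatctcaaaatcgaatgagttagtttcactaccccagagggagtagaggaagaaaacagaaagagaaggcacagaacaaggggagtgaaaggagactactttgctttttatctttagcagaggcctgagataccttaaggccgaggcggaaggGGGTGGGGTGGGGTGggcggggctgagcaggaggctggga

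GATAAG was found once in each of the 4 globin windows, at -182 in Hba-a1, -185 in Hba-a2, -209 in Hbb-bs and -204 in Hbb-bt, counted back from the start. The other 3 motifs were found in the same windows as well. Among 32817 such windows of the RefSeq table, the GATA letters were found on either strand in 6.55%, the KLF letters in 52.0%, the CCAAT box in 33.8% and the TATA letters in 22.8%, and all 4 in 0.289%. The Alas2 window held the KLF letters 3 times, on the opposite strand (written GGGTG), and neither the exact letters GATAAG nor the CCAAT box. It does hold ttatct, which reads agataa on the opposite strand. Forms of GATA other than GATAAG were not searched for in any window. All of these are matches of letters and were not tested as binding sites.

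Globin RNA was present in every tumour, and its amount varied over a wide range. The 4 globin genes together took 0.409, 0.185, 0.193 and 0.218% of reads in the 4 shMdk anti-PD1 tumours and 0.426, 0.102, 0.164 and 0.379% in the shMdk IgG2a tumours. They took 0.146, 6.70, 0.0469 and 0.207% in the shCtrl anti-PD1 tumours and 1.47, 0.416, 0.0684 and 1.06% in the shCtrl IgG2a tumours. The highest value, 6.70% in shCtrl anti-PD1 tumour 2 (exact 95% binomial interval 6.68 to 6.72%), was 4.56 times the second and 143 times the lowest, and that tumour alone gave 46.7% of all globin reads of the series. Without it the range was still 31.3-fold. In bulk tumour RNA, fewer red cells and less globin RNA per cell cannot be told apart.

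The range differed between the hairpins. The 8 shMdk tumours lay within 0.102 to 0.426%, a 4.19-fold range, with a median of 0.205%. The 8 shCtrl tumours ran from 0.0469 to 6.70%, with a median of 0.312%, and still covered a 31.3-fold range without tumour 2 of the anti-PD1 group. This difference in spread is a description and was not tested. By group median the order was shCtrl IgG2a (0.740%), shMdk IgG2a (0.272%), shMdk anti-PD1 (0.205%) and shCtrl anti-PD1 (0.177%), and neighbouring groups in that order overlapped.

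**Figure D1:**
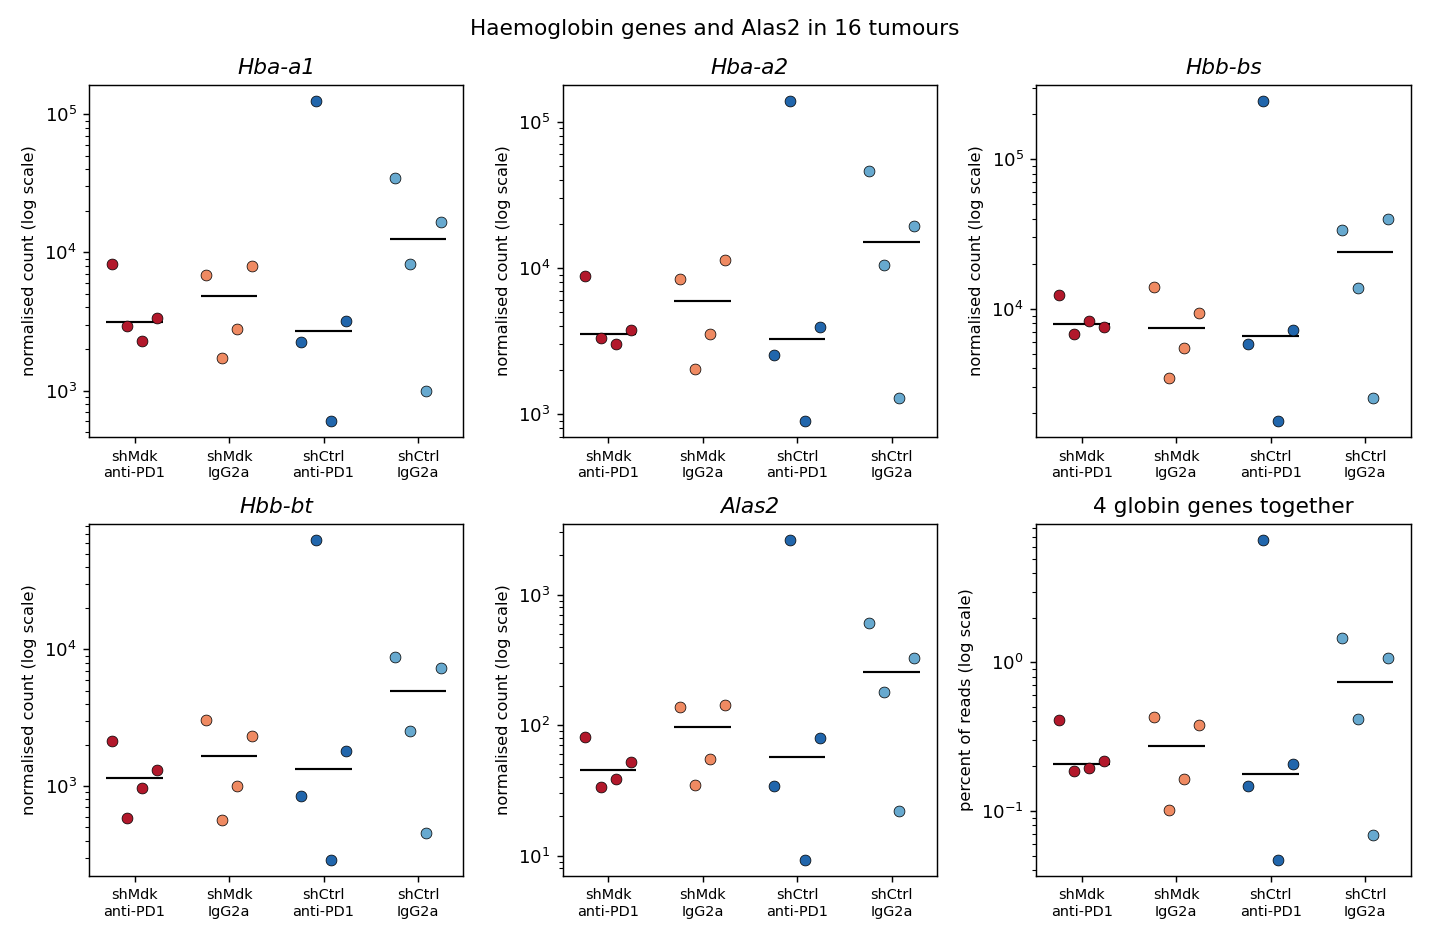
Normalised counts of the 5 genes, and the 4 globin genes together as percent of reads, in each tumour (points, log scale, 4 tumours per group, bars at the group medians). The second shCtrl anti-PD1 tumour is the highest point in all 6 panels, at 6.70% of reads in the last, and the groups overlap in all of them.

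Both alpha chain genes spanned this range. Hba-a1 had 8195, 2951, 2294 and 3354 normalised counts in shMdk anti-PD1 tumours, 6823, 1709, 2796 and 8018 in shMdk IgG2a tumours, 2238, 124856, 601.5 and 3171 in shCtrl anti-PD1 tumours and 34765, 8267, 992 and 16558 in shCtrl IgG2a tumours. Tumour 2 of the shCtrl anti-PD1 group was the highest and tumour 3 of the same group the lowest of all 16. Hba-a2 had 8751, 3330, 3003 and 3794 normalised counts in shMdk anti-PD1 tumours, 8405, 2051, 3526 and 11364 in shMdk IgG2a tumours, 2555, 138417, 899 and 3934 in shCtrl anti-PD1 tumours and 45787, 10470, 1288 and 19421 in shCtrl IgG2a tumours. The same tumours were highest and lowest, and Hba-a2 exceeded Hba-a1 in all 16, by 1.07 to 1.49 times. Since reads of the alpha pair can be shared, this ratio and the separate values are uncertain.

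The beta chain genes had their highest and lowest values in the same tumours. Hbb-bs, the more abundant beta gene here, had 12317, 6790, 8287 and 7522 normalised counts in shMdk anti-PD1 tumours, 13874, 3449, 5486 and 9306 in shMdk IgG2a tumours, 5796, 245177, 1776 and 7256 in shCtrl anti-PD1 tumours and 33860, 13741, 2551 and 39637 in shCtrl IgG2a tumours. With a mean of 26052 it ranked 16 of all genes, and in shCtrl anti-PD1 tumour 2 it ranked 3. Hbb-bt had 2149, 584, 977 and 1310 normalised counts in shMdk anti-PD1 tumours, 3041, 565, 1004 and 2322 in shMdk IgG2a tumours, 853, 63381, 290.1 and 1814 in shCtrl anti-PD1 tumours and 8852, 2514, 454 and 7363 in shCtrl IgG2a tumours. Counts of this 3′-end kit do not scale with transcript length, and on that scale Hbb-bt was 0.0860 to 0.261 times Hbb-bs.

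Alas2 encodes the erythroid form of aminolevulinate synthase, which carries out the opening step of haem synthesis in red cell precursors. It had 80.6, 33.3, 39.0 and 52.5 normalised counts in shMdk anti-PD1 tumours, 138, 34.6, 55.0 and 143 in shMdk IgG2a tumours, 34.0, 2641, 9.30 and 80.0 in shCtrl anti-PD1 tumours and 602, 180.1, 21.9 and 328 in shCtrl IgG2a tumours. These rest on 10 to 1759 reads, far fewer than the globin genes, and the 284-fold range was wider than that of the globin genes (138 to 219-fold). The standard deviation of log2 values over the 16 tumours was 1.93 for Hba-a1, 1.89 for Hba-a2, 1.70 for Hbb-bs, 1.93 for Hbb-bt and 1.97 for Alas2, against a median of 0.41 over all genes tested. A larger one was found for 0.375% (Alas2) to 1.10% (Hbb-bs) of genes.

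In the Mdk-knockdown line, the first comparison the design implies set anti-PD1 against IgG2a, and none of the 5 genes passed the test. Hba-a1 averaged 4199 ± 2700 normalised counts under anti-PD1 and 4836 ± 3056 under IgG2a (SD, n = 4 each), and the ranges overlapped for all 5 genes. By limma's moderated test, log2 fold changes ran from -0.68 ± 1.24 (SE) for Alas2 to 0.27 ± 1.10 for Hbb-bs, with Hba-a1 at -0.12 ± 1.24, Hba-a2 at -0.26 ± 1.21 and Hbb-bt at -0.33 ± 1.22, and Benjamini-Hochberg adjusted p-values of 0.819 to 0.973 over all genes. The 0 of 5 called stand beside 0.0341% of all genes called, 0 of 5 had an unadjusted p under 0.05, beside 12.4% of all genes, and 0 of 5 had groups without overlap, beside 8.51%. The 95% intervals reached from -2.74 to 2.50 for Hba-a1 and from -2.04 to 2.58 for Hbb-bs, the narrowest of the 5. These SE and intervals use a spread pooled over all groups and are not those of the shMdk tumours alone. On the log2 scale, the SD of the globin share of reads was 0.74 over the 8 shMdk tumours and 2.42 over the 8 shCtrl tumours. edgeR and DESeq2 also called 0 of the 5, beside 0.0545% and 1.7% of all genes.

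In shCtrl tumours the values depended on 1 tumour. Hba-a1 averaged 32717 ± 61435 normalised counts under anti-PD1 and 15145 ± 14544 under IgG2a (SD, n = 4 each), higher under anti-PD1, while its log2 fold change was -0.79 ± 1.24 (SE). Hba-a2 (-0.81 ± 1.21), Hbb-bs (-0.34 ± 1.10), Hbb-bt (-0.35 ± 1.22) and Alas2 (-0.85 ± 1.24) showed the same split between the means and the log2 values. None was called by limma (adjusted p 0.862 to 0.950), beside 0% of all genes, and 0 had an unadjusted p under 0.05, beside 3.79%. All 5 had overlapping groups, where 2.11% of all genes had none. On recovered reads the 5 log2 fold changes were positive, at 0.94 to 1.81 by edgeR and 0.92 to 1.79 by DESeq2, and 0 of the 5 were called by either, beside 0% and 0.0479% of all genes. They were also positive by limma without the 5 libraries with a positive GC slope described further on, at 0.11 to 0.34. Without shCtrl anti-PD1 tumour 2, the log2 fold changes were -2.35 for Hba-a1, -2.33 for Hba-a2, -1.81 for Hbb-bs, -1.94 for Hbb-bt and -2.46 for Alas2. The unadjusted limma p-values were then 0.0210, 0.0199, 0.0273, 0.0405 and 0.0134 in the same order of genes, and the adjusted p was 0.837 for each. Among the 3 tumours left under anti-PD1 the globin share was 0.0469 to 0.207%, against 0.0684 to 1.47% under IgG2a, so the groups still overlapped.

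Under anti-PD1, shMdk and shCtrl tumours were not separated by any of the 5 genes. Alas2 averaged 51.3 ± 21.1 normalised counts in shMdk tumours and 691 ± 1300.1 in shCtrl tumours (SD, n = 4 each). Log2 fold changes were -0.38 ± 1.24 (SE) for Hba-a1, -0.48 ± 1.21 for Hba-a2, -0.45 ± 1.10 for Hbb-bs, -1.04 ± 1.22 for Hbb-bt and -0.92 ± 1.24 for Alas2, with limma adjusted p-values of 0.742 to 0.925. None was called, beside 5.93% of all genes, none had an unadjusted p under 0.05, beside 17.8%, and none had groups without overlap, beside 13.4%. On recovered reads, edgeR also called 0 of the 5, beside 5.9% of all genes, with an unadjusted p under 0.05 for 5, beside 18.6%. DESeq2 called 2, beside 8.95% of all genes, Hbb-bt at -3.73 (adjusted p 0.0311) and Alas2 at -3.75 (adjusted p 0.0309). In shCtrl anti-PD1 tumour 2, Hbb-bt was at 63381 and Alas2 at 2641 normalised counts. The rest of that group lay at 290.1 to 1814 and 9.30 to 80.0. Group medians in shMdk and shCtrl tumours were 1144 and 1334 for Hbb-bt and 45.7 and 57.0 for Alas2. edgeR and DESeq2 were not refitted without that tumour. Without shCtrl anti-PD1 tumour 2, the limma log2 fold changes turned positive, at 1.19 for Hba-a1, 1.03 for Hba-a2, 1.01 for Hbb-bs, 0.55 for Hbb-bt and 0.68 for Alas2 (adjusted p 0.528 to 0.808).

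Under IgG2a the 5 log2 fold changes of shMdk against shCtrl tumours lay close together and none passed. Hbb-bs averaged 8029 ± 4591 normalised counts in shMdk tumours and 22447 ± 17295 in shCtrl tumours (SD, n = 4 each). The log2 fold changes were -1.04 ± 1.24 (SE) for Hba-a1, -1.03 ± 1.21 for Hba-a2, -1.07 ± 1.10 for Hbb-bs, -1.05 ± 1.22 for Hbb-bt and -1.09 ± 1.24 for Alas2, with limma adjusted p-values of 0.889 to 0.915. The 0 called stand beside 1.74% of all genes, 0 had an unadjusted p under 0.05, beside 9.69%, and 0 had groups without overlap, beside 6.09%. edgeR and DESeq2 called 0 of the 5, beside 1.71% and 3.07% of all genes. The 5 genes vary together from tumour to tumour, so these 5 values are not independent of each other, and shCtrl IgG2a tumour 3 (0.0684% globin reads) lay below all 4 shMdk IgG2a tumours.

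The difference of the anti-PD1 effects between the lines was 0.66 ± 1.76 for Hba-a1, 0.55 ± 1.71 for Hba-a2, 0.61 ± 1.55 for Hbb-bs, 0.016 ± 1.73 for Hbb-bt and 0.17 ± 1.75 for Alas2 on the log2 scale (SE). None was called by limma (adjusted p 0.9998), beside 0% of all genes, with 0 at an unadjusted p under 0.05, beside 3.45%. Over the 4 comparisons and 5 genes, 20 two-sided exact permutation tests of the mean gave p-values of 0.171 to 0.971, and 0.952 to 0.971 after Benjamini-Hochberg adjustment. edgeR gave the opposite sign for all 5, at -1.34 to -2.27, as did DESeq2, at -1.32 to -2.26, and both called 0 of the 5, beside 0% of all genes. Without shCtrl anti-PD1 tumour 2, the limma values were 1.61 to 2.23 (adjusted p 0.99999).

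**Figure D2:**
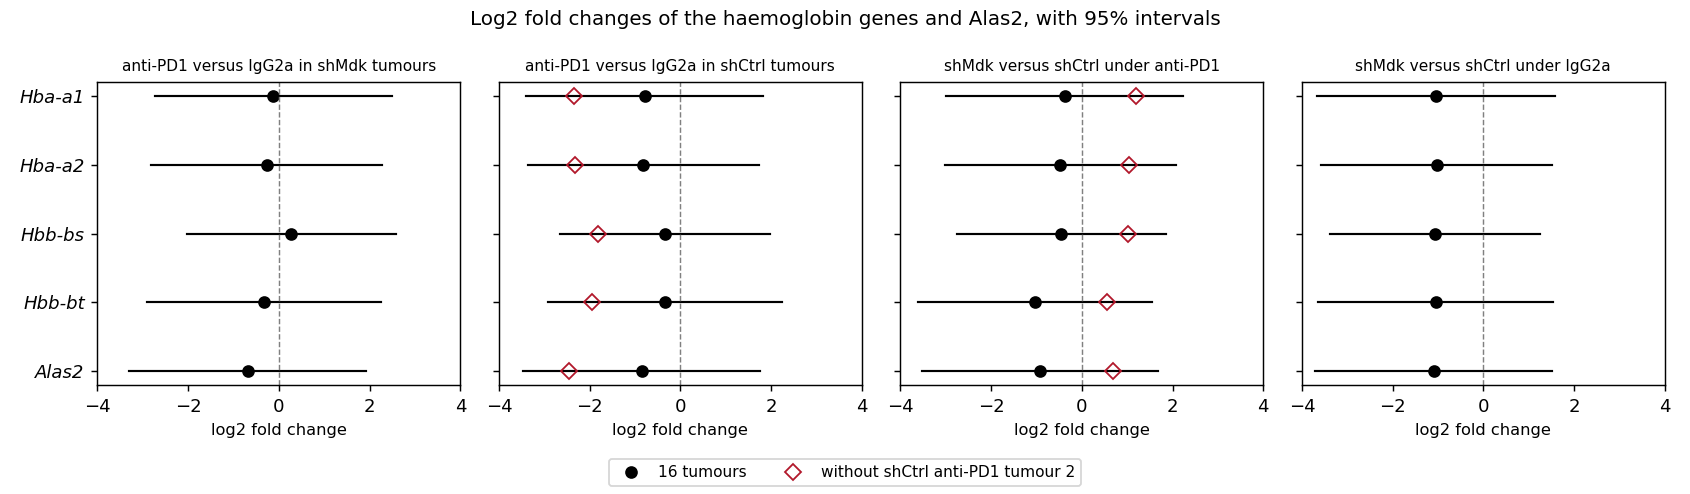
Log2 fold changes of the 5 genes (circles, 16 tumours) with 95% intervals in the 4 comparisons, and the value without shCtrl anti-PD1 tumour 2 (open diamonds) in the 2 comparisons that hold it. The intervals use a spread pooled over the 4 groups. All 20 intervals cross 0, and leaving out shCtrl anti-PD1 tumour 2 moves all 5 genes from negative to positive in shMdk against shCtrl under anti-PD1.

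The 5 genes varied together from tumour to tumour. Over the 16 tumours, the 10 pairs had a Pearson r of 0.964 (Hbb-bs with Alas2) to 0.998 (Hba-a1 with Hba-a2) and a Spearman rho of 0.918 to 0.985 on log2 values. Every permutation p, raw and adjusted over the 10 pairs, was 1e-05, the smallest that 100000 resamples can give. Without the 2 tumours farthest from the median, r was 0.932 to 0.995, and for deviations from the group means it was 0.975 to 0.998. Alas2 had r = 0.987 with Hba-a2 and 0.987 with Hbb-bt. Reads of Hba-a1 and Hba-a2 can be shared, so the r of that pair is uncertain as well.

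The makeup of the globin reads was steadier than their amount, and it moved with a property of the libraries. Alpha reads made up 53.9, 46.0, 36.4 and 44.7% of globin reads in shMdk anti-PD1 tumours and 47.4, 48.4, 49.3 and 62.5% in shMdk IgG2a tumours. They made up 41.9, 46.0, 42.1 and 43.9% in shCtrl anti-PD1 tumours and 65.3, 53.5, 43.1 and 43.4% in shCtrl IgG2a tumours. In the tumour with 6.70% globin reads, the alpha share of 46.0% thus lay inside the range of the others. The last 300 bases of the transcript contain 60.0% G and C in Hba-a1 and 58.7% in Hba-a2, against 49.7% in Hbb-bs and 48.7% in Hbb-bt, and 43.0% in the median gene.

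For each library, the slope of all abundant genes on this GC content was computed as log2 deviation per 10% GC. The 5 tumours with a positive slope (0.0860 to 0.169) had alpha shares of 49.3 to 65.3%, and the 11 others (slopes -0.116 to -0.00145) had 36.4 to 48.4%, with r = 0.858 over the 16 as a description. These 5 were shMdk anti-PD1 tumour 1, shMdk IgG2a tumours 3 and 4, and shCtrl IgG2a tumours 1 and 2, and their Hbb-bs share was 27.5 to 42.8%, against 42.9 to 56.9% in the others. The part of the slope in the alpha share was not tested. The globin share of reads had a median of 0.409% in the 5 tumours with a positive slope and 0.193% in the 11 others. On the log2 scale its r with the slope was 0.184 over the 16 tumours and 0.497 without shCtrl anti-PD1 tumour 2.

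**Figure D3:**
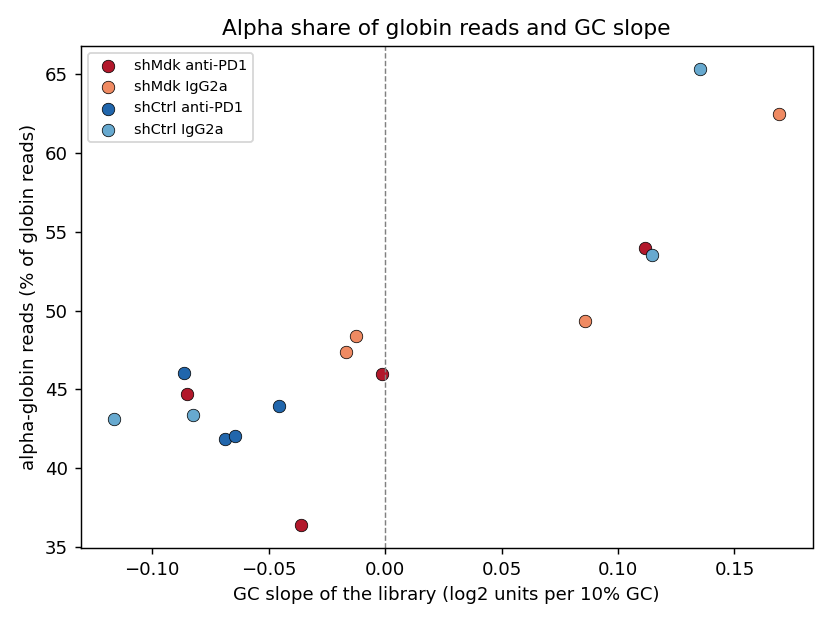
Alpha-globin reads as percent of globin reads (vertical axis) against the GC slope of each library (horizontal axis, log2 units per 10% GC), 1 point per tumour, coloured by group. The 5 tumours right of 0 have the 5 highest alpha shares, 49.3 to 65.3%.

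Set against the globin reads, Alas2 was lower in every shMdk anti-PD1 tumour than in any shMdk IgG2a tumour. Per 10000 globin reads there were 25.7, 24.4, 26.8 and 32.8 Alas2 reads in shMdk anti-PD1 tumours, against 42.9, 44.5, 42.9 and 46.1 in shMdk IgG2a tumours, so the groups did not overlap. In shCtrl tumours the values were 29.7, 46.2, 26.1 and 49.4 under anti-PD1, against 48.9, 51.5, 41.4 and 39.5 under IgG2a, with overlap. The ratio was looked at after the levels had been seen, so no test is given. The share of all genes without overlap was not computed for such a ratio, so how unusual this separation is cannot be said. For levels, that share was 8.51% in anti-PD1 against IgG2a in shMdk tumours, and the levels of Alas2 overlapped. Counting error is large at 34 to 136 Alas2 reads in shMdk tumours: the exact 95% Poisson interval was 16.9 to 34.1 in shMdk anti-PD1 tumour 2 and 31.5 to 61.0 in shMdk IgG2a tumour 2.

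**Figure D4:**
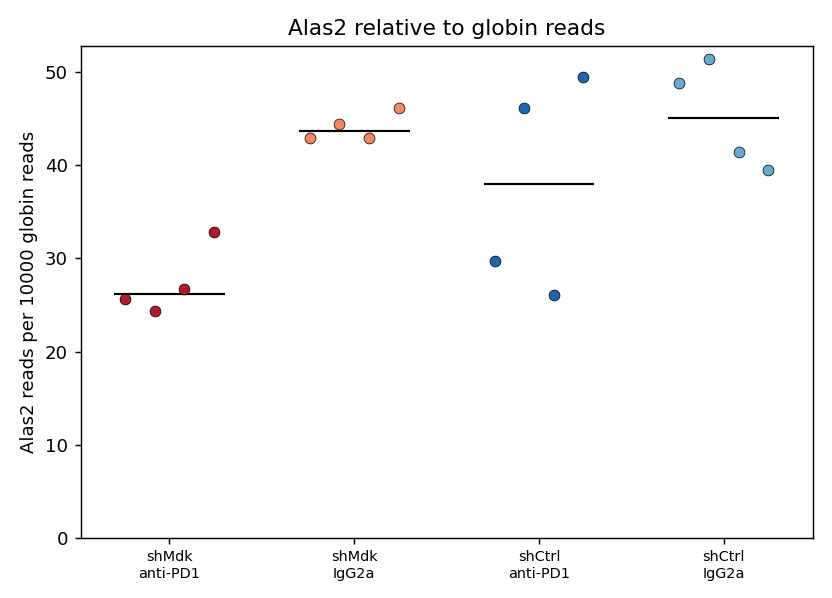
Alas2 reads per 10000 globin reads in each tumour (points, 4 per group, bars at the group medians). The 4 shMdk anti-PD1 tumours lie between 24.4 and 32.8, below the 4 shMdk IgG2a tumours at 42.9 to 46.1, while the shCtrl groups overlap. The share of all genes without overlap was not computed for this ratio.

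The genes whose pattern was most like the summed globin genes were named by Pearson r over the 16 tumours on log2 values, with no p. The 5 genes themselves held the first 5 ranks of 14672 (r = 0.985 to 0.995), Alas2 among them although it was no part of the sum. The next were Tent5c (r = 0.930), Slc4a1 (0.911), Gm13573 (0.909), Cd24a (0.868), Eml1 (0.857), Maml3 (0.855), Gatad2b (0.846), Fam220a (0.844), Eno1 (0.839) and Gm11491 (0.834). Slc4a1 encodes band 3, the anion exchanger of the red cell membrane. Without shCtrl anti-PD1 tumour 2, r was 0.873 for Tent5c, 0.838 for Slc4a1 and 0.832 for Gm13573, and 0.689 to 0.768 for the other 7.

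Slc4a1 had few reads in most tumours. It had 9.71, 0.979, 5.93 and 2.54 normalised counts in shMdk anti-PD1 tumours, 1.11, 0.909, 2.84 and 10.5 in shMdk IgG2a tumours, 2.76, 318, 0 and 21.6 in shCtrl anti-PD1 tumours and 38.3, 7.46, 0 and 35.1 in shCtrl IgG2a tumours. The 4 highest values were in shCtrl tumours and the 2 zeros also, both in the tumours with the lowest globin share.

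The genes around haemoglobin were then set against Hbb-bs in lists of other roles, 77 genes in all, each over the 16 tumours. Of all 14667 genes other than the 5, 1.17% had an r over 0.7 with Hbb-bs, as did each of the 5 list genes that passed. Of 12 erythroid identity genes tested, 2 rose with Hbb-bs by a permutation p of Pearson's r adjusted over the 77 genes: Slc4a1 (r = 0.906, rho = 0.796, adjusted p 0.000770) and Car2 (r = 0.765, rho = 0.494, adjusted p 0.0467), a carbonic anhydrase. Car2, Ppbp and Itga2b are named because they passed, after their values were seen. Without the 2 tumours farthest from the median of Hbb-bs, r was 0.779 for Slc4a1 and 0.227 for Car2, so the relation of Car2 rests on those tumours. Of those 12 genes, 6 had their highest value of all tumours in shCtrl anti-PD1 tumour 2, beside 15.0% of all genes.

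The transcription factor Klf1, which drives adult beta-globin transcription in precursors, did not pass (r = 0.0797, rho = 0.0735, adjusted p 0.884), with 9.01 normalised counts in the tumour of 6.70% globin and 0 to 12.8 in the others. Tfrc, the transferrin receptor, which many dividing cells use, and Slc25a37, the mitochondrial iron importer mitoferrin, had the highest levels of the list, with r = -0.32 and 0.40 (adjusted p 0.471 and 0.364). The other 7 globin and globin-chaperone genes looked up were not among the 16094 genes measured, so they were not tested. Those measured included 13 of 25 erythroid, 7 of 14 platelet and megakaryocyte and 7 of 12 neutrophil genes looked up.

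Among the 8 haem synthesis enzymes other than Alas2, only Fech, the ferrochelatase that inserts iron in the last step, rose with Hbb-bs (r = 0.835, rho = 0.641, adjusted p 0.0139 for r and 0.101 for rho). It had 904 normalised counts in shCtrl anti-PD1 tumour 2 and 259 to 459 in the other 15, and r was 0.670 without the 2 farthest tumours. Alas1, the form of the opening enzyme used outside red cells, had 110.4 to 339 normalised counts and did not pass (r = -0.08, adjusted p 0.906).

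Markers of other blood components moved with the haemoglobin genes in part. Of 5 platelet and megakaryocyte genes, Ppbp, the platelet basic protein (r = 0.731, rho = 0.747, adjusted p 0.0305), and Itga2b, the platelet integrin alpha chain (r = 0.712, rho = 0.806, adjusted p 0.0314), rose with Hbb-bs, and r was 0.655 and 0.613 without the 2 farthest tumours. Pf4, platelet factor 4, did not (r = -0.05, adjusted p 0.926). Ppbp and Itga2b had few reads. Their medians over the 16 tumours were 10.43 and 7.59 normalised counts, against 244 for Pf4. In shCtrl anti-PD1 tumour 2 Ppbp rested on 34 reads and Itga2b on 13. Of 7 neutrophil genes, 0 passed by Pearson's r, with S100a8 at 0.642 (adjusted p 0.0726) and S100a9 at 0.629 (adjusted p 0.0845), and S100a9 passed by rank (rho = 0.744, adjusted p 0.0273). S100a8 (rho = 0.691) and the endothelial gene Emcn (rho = 0.703) were only just under the threshold by rank, with an adjusted permutation p of 0.0497 each. A p this close to the threshold moves across it with the number of genes adjusted over, and neither gene passed by Pearson's r.

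No gene of the 5 remaining lists passed by Pearson's r. The median r was 0.27 over 13 endothelial genes, -0.02 over 12 genes of haemoglobin and haem clearance and iron storage, -0.20 over 7 melanoma genes, -0.31 over 8 leukocyte genes and -0.39 over 5 fibroblast genes, beside -0.03 over all genes. Without shCtrl anti-PD1 tumour 2, the median r was 0.33 over the endothelial, 0.077 over the clearance and iron, -0.33 over the melanoma, -0.0018 over the leukocyte and 0.021 over the fibroblast genes, beside 0.012 over all genes, so the negative medians of the leukocyte and fibroblast lists rest on that tumour. In shCtrl anti-PD1 tumour 2 the summed level of the leukocyte list was 108 normalised counts, the lowest of all tumours, with the macrophage gene Adgre1 at 0, and 4 of 8 leukocyte and 4 of 5 fibroblast genes had their lowest value there, beside 13.2% of all genes. The part of those cells in the result was not tested. Summed levels of the 9 lists against the 5 genes gave 45 relations, and none passed (adjusted p 0.407 to 0.977 for r).

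**Figure D5:**
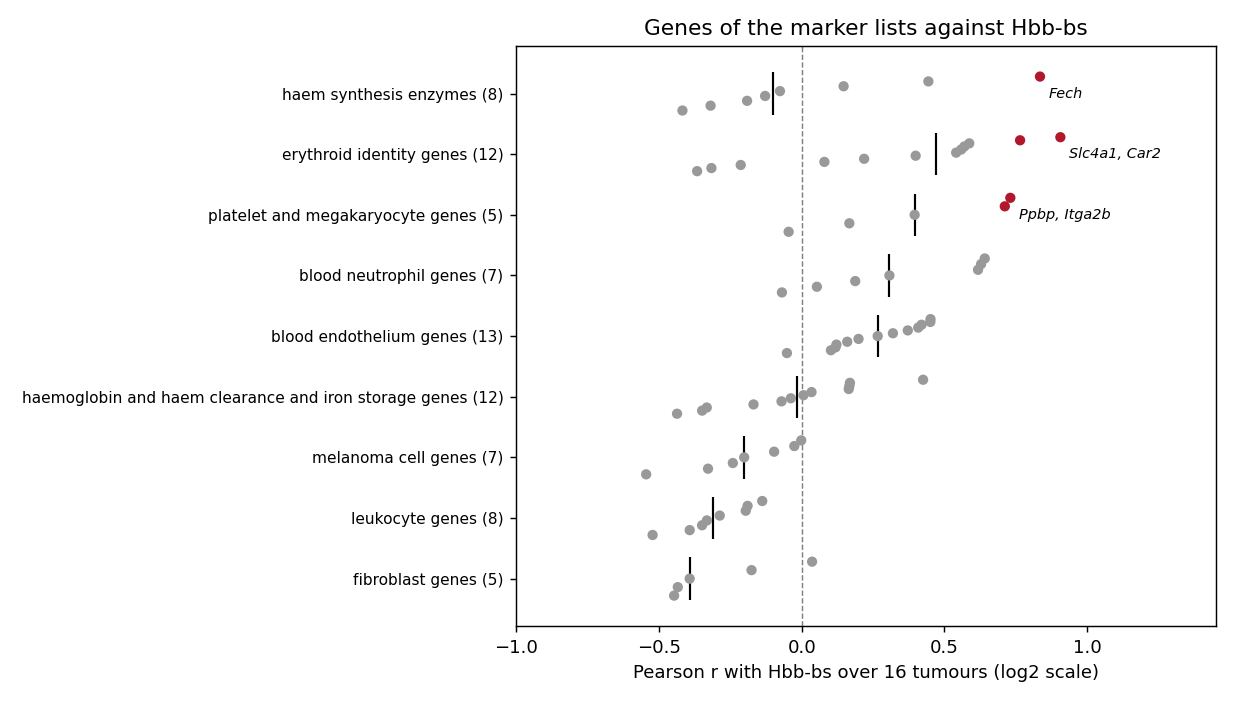
Pearson r of each list gene with Hbb-bs over the 16 tumours (points, red where the adjusted permutation p was under 0.05, bars at the list medians, numbers of genes in brackets). Fech, Slc4a1, Car2, Ppbp and Itga2b lie between 0.712 and 0.906, and no gene passed on the negative side.

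Between the groups, list genes of other cell types passed mostly in 1 comparison. In shMdk against shCtrl tumours under anti-PD1, 0 of 12 erythroid genes and 0 of 8 haem synthesis enzymes passed limma's test, with median log2 fold changes of -0.55 and -0.08, beside -0.02 over all genes and -0.48 over the 4 globin genes and Alas2. In the same comparison, where 5.93% of all genes were called, 2 of 5 platelet genes rose, Pf4 (2.22 ± 0.33, SE, adjusted p 0.000965) and Itgb3 (1.15 ± 0.31, adjusted p 0.0346). Ppbp and Itga2b, the platelet genes that rose with Hbb-bs over the tumours, were not called here. One of 7 neutrophil genes rose, Retnlg (2.92 ± 0.63, adjusted p 0.00918), and 3 of 13 endothelial genes rose, Tie1 (1.55 ± 0.32), Pecam1 (1.24 ± 0.35) and Cdh5 (1.03 ± 0.30), with adjusted p-values of 0.00720 to 0.0495.

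Of 12 clearance and iron genes, 4 rose and 1 fell in that comparison, beside 5.93% of all genes called. Those that rose were Slc11a1 (1.63 ± 0.29), a phagosomal metal transporter, Hp (2.13 ± 0.55), haptoglobin, which binds free haemoglobin in plasma, Cd163 (2.39 ± 0.67), the macrophage receptor for the haptoglobin-haemoglobin complex, and Lrp1 (1.04 ± 0.29), the receptor for haem-bound haemopexin. Blvra, a biliverdin reductase, fell by 0.44 ± 0.12. The leukocyte and fibroblast lists moved in the same comparison, with 6 of 8 and 3 of 5 genes higher, among them Nkg7 (3.76 ± 0.63) and Col1a1 (2.13 ± 0.53). The part of those cells in the platelet, neutrophil, endothelial and clearance genes was not tested. Under IgG2a, where 1.74% of all genes were called, 2 of 8 leukocyte genes rose, Nkg7 (3.36 ± 0.63) and Ptprc (2.88 ± 0.51), no melanoma gene passed in any comparison (the pigment genes Dct and Pmel were the most abundant of them), and no list gene passed in the 2 antibody comparisons or in their difference.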

How the data were processed

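Tumour RNA was read from the 3′ end with a stranded oligo-dT kit, per the labels' protocols, which give 500 ng of input RNA and RNA integrity numbers of 8.6 on average (5.8 to 9.2). The build GRCm38 and, among the tools, TopHat2 2.0.10, HTSeq, DESeq2, SAMtools 0.1.19, Bowtie 1.0.0 and FastQC 0.11.0 come from the submitters' processing notes, and stranded settings for TopHat and HTSeq from the labels' protocols. How multi-mapped reads were treated is not given in the sources used here. The values deposited by the authors are a normalised signal, gene read counts divided by DESeq2 size factors. Whole reads were recovered: 100% of values came out whole within 0.001, and size factors recomputed from them matched in 16 of 16 libraries within 1e-06. Columns left unused numbered 0.

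Groups were compared with limma 3.58.1 (R 4.3.3) on log2(value + 1) with group means, a variance trend and all 16 tumours (12 residual degrees of freedom), for genes with a mean of at least 5, with Benjamini-Hochberg adjustment over 14672 genes and calls at an adjusted p under 0.05. Fold changes are on that log2 scale, which understates those of low genes. edgeR 4.0.16 (quasi-likelihood) and DESeq2 1.42.0 on the recovered reads were alternatives, with all genes called numbering 8 and 244 in anti-PD1 against IgG2a in shMdk tumours. Other alternatives were the pseudocount, the filter, TMM and total scaling, fits of only the 2 groups compared, leaving out each tumour, and, chosen after seeing the data, leaving out the 2 libraries highest in Gm42418 or the 5 with a positive GC slope, or adding that slope as a covariate. The slope was computed from 8011 genes with a mean of at least 100, using the last 300 bases of the longest GENCODE M21 transcript. Correlations used 100000 permutations. The limma and permutation steps were tested on simulated data. Binomial and Poisson intervals cover counting error only. Nothing states that the tumours came from separate mice, so p-values measure the spread between tumours.

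Named genes were the 5 genes, the list genes that passed (up to 4 per list) or else the 2 most abundant, the 10 genes most like the summed globins, and Mdk. Outside that rule, Klf1, Adgre1, S100a8, S100a9, Emcn, Car2, Ppbp, Itga2b and Lrp1 were named after their values were seen. The 5 genes and all lists (haem synthesis, other globins, erythroid, platelet, neutrophil, endothelial, clearance and iron, melanoma, leukocyte, fibroblast) were chosen with earlier results of these data known, and 1 gene of the erythroid list is not reported here and is in no count of that list. Coordinates are those of GENCODE M21, and upstream windows are those of RefSeq (GRCm38.p6, 5 of 5 genes matched).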

Additional observations from a re-analysis of the deposited data

Results flagged for a closer look

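In 14 of 56 groups of 4 tumours tested (14 measures in 4 groups), 1 tumour lay farther from the others than Dixon's 95% limit for 4 samples. The limit was applied to values that were not log2-transformed. Chance gives about 5% only where values are normally distributed, and the counts and globin shares were skewed between tumours. The 14 cases are therefore not set against that rate. The measures are not independent, since 9 of these cases concern 1 tumour.

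In shCtrl anti-PD1 tumour 2, Hba-a1 (124856 normalised counts), Hba-a2 (138417), Hbb-bs (245177), Hbb-bt (63381), Alas2 (2641), the globin share of reads (6.70%), Slc4a1 (318), Tent5c (603) and Fech (904) all lay above the other 3 tumours of the group. In shMdk anti-PD1 tumour 1, Hba-a2 (8751 normalised counts) and the globin share (0.409%) lay above the rest of the group. The alpha share of globin reads was 62.5% in shMdk IgG2a tumour 4, above the rest. The ratio of Hbb-bt to Hbb-bs was 0.261 in shCtrl IgG2a tumour 1, above the rest. Tent5c was at 31.8 normalised counts in shMdk IgG2a tumour 2, below the rest.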

How the results depend on the processing

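The 25 log2 fold changes of the 5 genes were recomputed 535 times in all. In 450 of these the direction and the side of the threshold did not change, 83 changed direction and 2 passed the threshold. None of the fold changes that changed direction was called in either fit, and the cause was not tested. Pseudocounts of 0.5 and 5, no filter, a filter of 20, total scaling and fits of only 2 groups changed 0. The correlations of the 10 pairs kept r = 0.965 to 0.998.

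For anti-PD1 against IgG2a in shCtrl tumours, edgeR gave 1.13 for Hba-a1, 0.94 for Hba-a2, 1.55 for Hbb-bs, 1.81 for Hbb-bt and 1.30 for Alas2, DESeq2 gave 1.11, 0.92, 1.54, 1.79 and 1.29, and leaving out the 5 libraries with a positive GC slope gave 0.25, 0.25, 0.21, 0.34 and 0.11. The GC slope as covariate gave 0.030 for Hbb-bt. For the difference of the anti-PD1 effects between shMdk and shCtrl, in the same order of genes, edgeR gave -1.34, -1.37, -1.43, -2.27 and -2.14, DESeq2 -1.32, -1.35, -1.42, -2.26 and -2.14, and leaving out those 5 libraries -0.52, -0.56, -0.092, -0.87 and -0.86. For Hbb-bt, TMM scaling gave -0.0036 and the covariate -0.078. Leaving out the 2 libraries highest in Gm42418 gave 1.19, 1.03, 1.01, 0.55 and 0.68 for shMdk against shCtrl under anti-PD1, where DESeq2 called 2 of the 5 genes. The libraries left out were shCtrl anti-PD1 tumour 2 and shMdk IgG2a tumour 1. Only the former is in that comparison, so its 5 values equal those without shCtrl anti-PD1 tumour 2 alone. Only shMdk IgG2a tumour 1 is in the comparison of shMdk tumours that follows. In shMdk tumours, anti-PD1 against IgG2a was 0.13 for Hba-a1 and 0.038 for Hbb-bt without those 2 libraries, and 0.33 for Hba-a1 and 0.20 for Hba-a2 with the covariate.

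Leaving out 1 tumour at a time gave, for anti-PD1 against IgG2a in shMdk tumours, -0.53 to 0.21 for Hba-a1, -0.70 to 0.12 for Hba-a2, -0.069 to 0.60 for Hbb-bs, -0.77 to 0.038 for Hbb-bt, and in shCtrl tumours -2.35 to 0.21 for Hba-a1, -2.33 to 0.093 for Hba-a2, -1.81 to 0.56 for Hbb-bs, -1.94 to 0.65 for Hbb-bt, -2.46 to 0.21 for Alas2. It gave, for shMdk against shCtrl under anti-PD1, -1.38 to 1.19 for Hba-a1, -1.39 to 1.03 for Hba-a2, -1.36 to 1.01 for Hbb-bs, -2.03 to 0.55 for Hbb-bt, -1.98 to 0.68 for Alas2, and for the difference of effects -0.34 to 2.23 for Hba-a1, -0.36 to 2.06 for Hba-a2, -0.29 to 2.08 for Hbb-bs, -0.98 to 1.61 for Hbb-bt, -0.89 to 1.78 for Alas2.

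All genes called moved by over 1.5 times as follows. From 5 in shMdk tumours, anti-PD1 against IgG2a had 8 by edgeR, 244 by DESeq2, 27 with a pseudocount of 5, 25 from only 2 groups, 74 with the covariate, 11 and 1 without the 2 and the 5 libraries, 0 to 12 without 1 tumour, and 3 with a pseudocount of 0.5, no filter, TMM or total scaling. From 0 in shCtrl tumours it had 7 by DESeq2, 3 without the 2 libraries and 2 without shCtrl anti-PD1 tumour 2. From 870 under anti-PD1, shMdk against shCtrl had 1310 by DESeq2, 1411 with the covariate, and 443 and 569 without shMdk anti-PD1 tumours 1 and 2. From 255 under IgG2a it had 449 by DESeq2, 396 with the covariate, 74 without the 5 libraries, 167 and 136 without shMdk IgG2a tumours 1 and 3, and 160 and 158 without shCtrl IgG2a tumours 3 and 4. No paired analysis was possible because the labels give no replicate numbers that groups share. Depth limits Alas2, which rests on as few as 10 reads in a tumour.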
